A study of Mus musculus with 64 samples.

Results

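Spermatogonial stem cell genes are described here as 10 named genes of the mouse, chosen by symbol out of 26385 genes counted in each RNA-Seq library: *Gfra1*, *Ret*, *Etv5*, *Lhx1*, *Bcl6b*, *Id4*, *Zbtb16*, *Sall4*, *Foxo1* and *Taf4b*. All 10 had a single row in the deposited tables and were followed through 47 libraries, of which 20 were made from sorted germ cells and 27 from testis. In the mm9 annotation of the files, *Gfra1* lies at chr19:58310094-58530399, *Ret* at chr6:118101766-118147762, *Etv5* at chr16:22381382-22439792, *Lhx1* at chr11:84331479-84339517 and *Bcl6b* at chr11:70037630-70043300, each on the minus strand. *Zbtb16* (chr9:48462416-48644050) and *Sall4* (chr2:168573832-168593443) are also on the minus strand, and *Id4* (chr13:48356796-48359405) and *Foxo1* (chr3:52072259-52154031) are on the plus strand.

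Spermatogonial stem cells sustain sperm production by dividing to renew themselves and to give rise to differentiating spermatogonia, and they descend from the gonocytes that rest in the foetal testis and resume division after birth. Sertoli cells secrete GDNF, which binds the coreceptor GFRA1 and signals through the receptor tyrosine kinase RET, and ETV5, LHX1 and BCL6B are transcription factors whose genes respond to that signal. ID4 blocks the E proteins that bind E-box DNA, ZBTB16 (PLZF) and SALL4 are zinc finger factors of undifferentiated spermatogonia, FOXO1 is a forkhead factor held in check by PI3K signalling, and TAF4B is a subunit of the general transcription factor TFIID.

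The *Morc1*tg allele carries a tyrosinase transgene in FVB/N mice that removes exons 2 to 4 of *Morc1*. Germ cells of *Morc1*tg/+ (control) and *Morc1*tg/tg (mutant) males were sorted at embryonic days E16.5 (2 control and 2 mutant libraries) and E18.5 (2 and 2) and at postnatal days P2.5 (3 and 2) and P10.5 (4 and 3). Until P2.5 the germ cells were taken by the fluorescence of an *Oct4-IRES-eGfp* reporter, on a mixed background that all those groups share. At P10.5 they were taken by low side scatter, high EPCAM and absence of MHC class I. Neither gate used one of the 10 genes. Whole testis at P10.5 was taken from *Morc1*tg/tg males (3 libraries) with *Morc1*tg/+ (2) and *Morc1*+/+ (1) controls, from *Dnmt3l*-/- males (3) with *Dnmt3l*+/- (3) and *Dnmt3l*+/+ (3) controls, and from libraries labelled *Miwi2*-/- (2) and *Miwi2*+/- (2), and at P14.5 from *Morc1*tg/tg (3) and *Morc1*tg/+ (3) males. A further 2 P10.5 testis libraries, 1 *Morc1*tg/+ and 1 *Morc1*+/+, were labelled preliminary and entered only alternative fits. In 1 of these they joined the controls with a batch term. In the fits of all testis or all 47 libraries they formed groups of their own. Each library came from 1 mouse, and the strains of the *Dnmt3l* and *Miwi2* lines are not given in the sources used here.

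Sorted libraries held 2413679 to 14918478 reads on genes and testis libraries 22509570 to 42137954. *Morc1* itself was lower in the mutants in every *Morc1* comparison, by log2 fold changes from -2.32 in E18.5 germ cells, where it did not pass the test (adjusted p = 0.139), to -1.05 in P10.5 germ cells (adjusted p = 6.97e-06). *Dnmt3l* was lower in *Dnmt3l*-/- testis (log2 fold change -3.98, adjusted p = 1.02e-05). The gene that encodes MIWI2, *Piwil4*, did not follow its label, with a higher level in the libraries labelled *Miwi2*-/- than in those labelled *Miwi2*+/- (log2 fold change 0.69, adjusted p = 0.000746). The sources used here do not say which exons the *Miwi2* allele removes, so this level may not check the label. Germ cell markers were higher in sorted P10.5 *Morc1*tg/+ cells than in the testis (11 of 12 called), and all 11 Sertoli, all 6 tested Leydig and all 7 peritubular markers were lower, with no read of the Leydig hormone gene *Insl3* in those sorted libraries. All tests below are edgeR quasi-likelihood tests with p-values adjusted over all genes, and a gene is called where the adjusted p is under 0.05. Levels are RPKM, read counts scaled to exon length and to the number of mapped reads, so that levels of different genes can be compared, whereas fold changes are fitted to the counts.

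The first question was how the genes behaved as control germ cells passed from the foetal to the juvenile testis. In *Morc1*tg/+ germ cells the GDNF receptor genes, the 3 GDNF-responsive factors, *Id4* and *Zbtb16* rose 5- to 24-fold between E18.5 and P2.5, while *Sall4*, *Foxo1* and *Taf4b* were already abundant at E16.5. Between E18.5 and P2.5, 7 of the 10 genes rose and none fell by edgeR's test, beside 24.5% of 14499 genes called in either direction, and the median log2 fold change of the 10 genes was 2.57 beside -0.04 over all genes. The median log2 ratio of RPKM over all genes was 0.24 for this step, so ratios of RPKM exceed the fitted folds by about that amount. The corresponding shift was -0.18 from P2.5 to P10.5. Between genotypes in germ cells it was 0.08 at E16.5, -0.10 at E18.5, -0.007 at P2.5 and 0.09 at P10.5. Fewer cells of a type and less RNA per cell cannot be told apart in these pooled cells, here or in any comparison below.

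**Figure D1:**
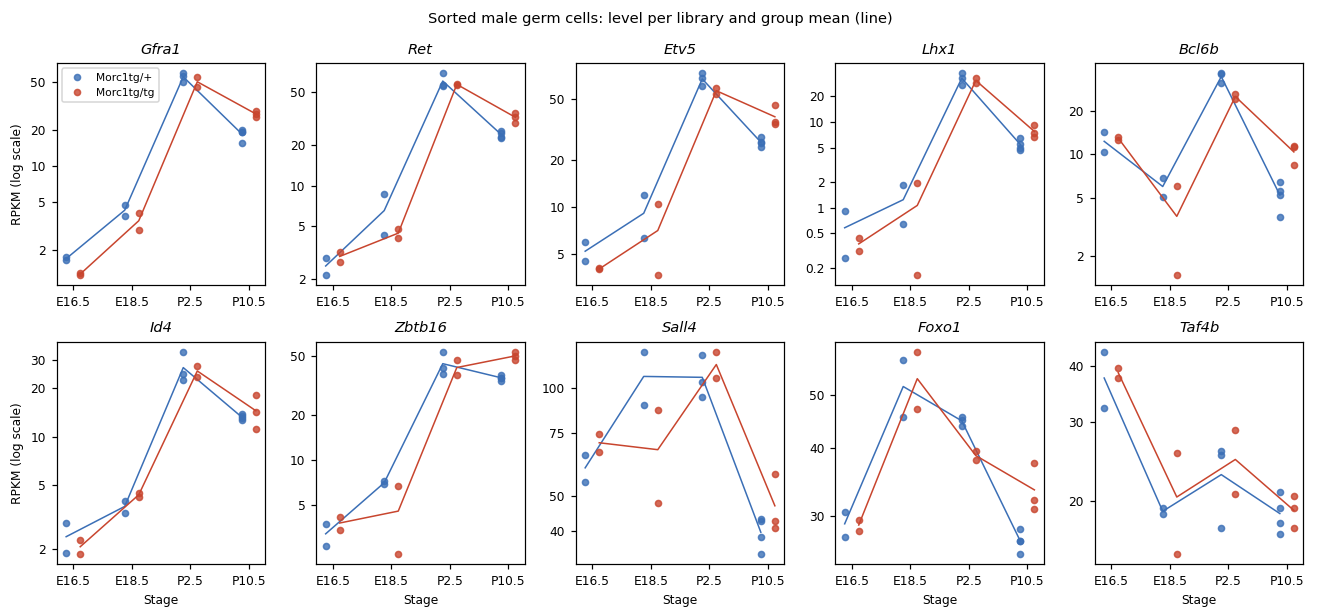
RPKM (log axis) of the 10 genes in the 20 sorted germ cell libraries of the 4 stages, with *Morc1*tg/+ in blue and *Morc1*tg/tg in red, each point a library and each line the group mean. *Gfra1* in *Morc1*tg/+ cells climbs from 4.26 at E18.5 to 55.1 at P2.5, and *Sall4* stays at 107 and 107.

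*Gfra1* stood at 1.63 and 1.72 RPKM in the 2 control libraries of E16.5, 4.71 and 3.80 at E18.5, 56.4, 49.9 and 59.1 at P2.5 and 19.2, 19.8, 19.2 and 15.5 at P10.5. The 4 stages did not overlap, and the gene rose 11.4-fold from E18.5 to P2.5 (log2 fold change 3.51, SE 0.19, adjusted p = 3.83e-06). *Ret* followed the same order, at 2.14 and 2.89 RPKM at E16.5, 8.73 and 4.32 at E18.5, then 69.0, 55.1 and 56.7 at P2.5 and 24.9, 25.5, 23.0 and 22.7 at P10.5, and rose 8.32-fold after E18.5 (log2 fold change 3.06, SE 0.25, adjusted p = 3.67e-05). The 2 receptor genes were thus within a factor of 2 of each other in the mean of every stage. Their step from E16.5 to E18.5, with log2 fold changes of 1.34 and 1.36, missed the threshold (adjusted p = 0.0553 and 0.0666), though *Gfra1* was called in 5 and *Ret* in 6 of 9 alternatives, DESeq2 among them (0.0242 and 0.00441).

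Among the GDNF-responsive factors, *Lhx1* was the least abundant before birth and had the largest rise of the 10 genes. The 2 libraries of E16.5 held 20 and 82 reads of it (0.257 and 0.906 RPKM) and those of E18.5 held 49 and 20 (1.83 and 0.642 RPKM), against 27.0, 36.7 and 32.5 RPKM at P2.5. The fitted rise was 23.6-fold (log2 fold change 4.56, SE 0.36, adjusted p = 2.81e-05), with a 95% interval of the log2 fold change from 3.78 to 5.35. *Etv5* went from 12.0 and 6.31 RPKM at E18.5 to 72.9, 60.1 and 67.9 at P2.5 (log2 fold change 2.72, SE 0.23, adjusted p = 4.55e-05). *Bcl6b*, which encodes a BTB zinc finger repressor, took another course before birth, from 10.4 and 14.2 RPKM at E16.5 down to 6.90 and 5.09 at E18.5, and then up to 31.2, 35.5 and 36.2 at P2.5. The E16.5 and E18.5 libraries did not overlap, yet the first step missed the threshold (log2 fold change -1.03, SE 0.22, adjusted p = 0.0538) while 6 of 9 alternatives called it, whereas the second passed it (log2 fold change 2.34, SE 0.21, adjusted p = 6.30e-05).

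*Id4* was at 1.88 and 2.88 RPKM at E16.5, 3.36 and 3.99 at E18.5, then 33.8, 24.6 and 22.4 at P2.5, a rise of 6.38-fold over the last step (log2 fold change 2.67, SE 0.37, adjusted p = 0.000647). *Zbtb16* stood at 2.66 and 3.75, 6.91 and 7.20 and 53.6, 38.1 and 41.9 RPKM at the same stages (log2 fold change 2.46, SE 0.22, adjusted p = 6.30e-05 from E18.5 to P2.5). *Sall4* had the highest mean of the 10 genes in the controls of all 4 stages, though at P10.5 its lead over *Zbtb16* was smaller than its SD. It had 54.5 and 65.1 RPKM at E16.5, 126 and 89.3 at E18.5, then 123, 94.1 and 103 at P2.5. Its E18.5 and P2.5 libraries overlapped, as did those of *Foxo1* and *Taf4b*. *Foxo1* had 27.5 and 30.5 RPKM at E16.5, 58.1 and 45.6 at E18.5, then 43.8, 45.1 and 45.6 at P2.5. *Taf4b* was highest at E16.5, with 32.1 and 42.9 RPKM, followed by 18.7 and 19.3 at E18.5, then 17.5, 25.8 and 25.4 at P2.5. None of the 3 passed edgeR's test from E18.5 to P2.5, with log2 fold changes of -0.18 (95% interval -0.55 to 0.18), -0.39 (-0.71 to -0.07) and 0.07 (-0.38 to 0.52). *Foxo1* was called lower at P2.5 by DESeq2 (adjusted p = 0.0191) and with all 20 sorted libraries in 1 edgeR fit (0.00602).

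The earlier step, from E16.5 to E18.5, called *Zbtb16* and the 3 genes that did not pass afterwards. *Zbtb16* (log2 fold change 1.17, SE 0.24, adjusted p = 0.0470), *Sall4* (0.85 ± 0.14, adjusted p = 0.0310) and *Foxo1* (0.84 ± 0.13, adjusted p = 0.0259) rose and *Taf4b* fell (-0.96 ± 0.15, adjusted p = 0.0283), 4 of 10 beside 7.74% of all genes tested. The median of the 10 genes was 0.84, beside -0.07 over all genes. These calls rest on 2 libraries a stage: without E16.5 replicate 1 or without E16.5 replicate 2, 0 of the 10 genes were called, and without E18.5 replicate 1 or replicate 2 the number was 7 or 9. Each of these fits leaves 1 library in a stage and takes its spread from the other stage alone.

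The promoters of the genes that rose together after E18.5 are shown for 3 of them, since *Gfra1*, *Etv5* and *Lhx1* stand for the coreceptor and the responsive factors and have an entry in RefSeq's promoter table (GRCm38.p6). That table held 6 promoters of 5 of the 10 genes. Each line gives the 250 bases before an annotated start, 5′ to 3′ on the gene's strand, with capitals marking E-box letters (CANNTG) or the FOXO letters GTAAACA.
*Gfra1*, chr19:58455399-58455648, minus strand: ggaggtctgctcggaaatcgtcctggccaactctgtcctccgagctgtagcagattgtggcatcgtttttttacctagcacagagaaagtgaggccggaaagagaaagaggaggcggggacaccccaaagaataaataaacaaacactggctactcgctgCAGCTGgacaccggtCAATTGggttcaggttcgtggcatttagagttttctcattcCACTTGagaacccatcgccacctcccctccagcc
*Etv5*, chr16:22439571-22439820, minus strand: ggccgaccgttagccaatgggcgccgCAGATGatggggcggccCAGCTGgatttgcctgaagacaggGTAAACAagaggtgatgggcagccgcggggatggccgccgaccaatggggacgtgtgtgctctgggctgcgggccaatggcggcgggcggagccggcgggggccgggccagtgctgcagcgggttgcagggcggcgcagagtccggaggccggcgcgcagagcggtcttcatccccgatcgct
*Lhx1*, chr11:84525535-84525784, minus strand: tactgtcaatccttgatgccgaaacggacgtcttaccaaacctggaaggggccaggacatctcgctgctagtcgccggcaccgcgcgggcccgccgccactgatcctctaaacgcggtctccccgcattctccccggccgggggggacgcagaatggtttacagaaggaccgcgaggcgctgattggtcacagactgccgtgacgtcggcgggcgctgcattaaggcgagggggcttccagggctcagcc
The *Gfra1* window held 3 E-box matches, the *Etv5* window shown 2 E-box matches and 1 FOXO match, and the *Lhx1* window none of either. A second *Etv5* promoter (chr16:22438369-22438618) and that of *Id4* held none, and that of *Foxo1* held 1 E-box match. Over 32851 promoters of the same length, counting both strands, E-box letters occurred in 66.2% and the FOXO letters in 3.17%. The letters CGGAAG, a form of the site bound by ETS factors such as ETV5, occurred in 13.6% of all promoters and in none of the 6 windows of these genes. Shorter forms of that site, such as GGAA, were not counted. A match describes letters and not a bound site, and no match says only that the letters are not in this window.

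From P2.5 to P10.5, 8 of the 10 genes fell and none rose, beside 39.3% of 14159 genes called in either direction, with a median log2 fold change of -1.09 for the 10 genes and 0.05 over all. *Bcl6b* lay between 31.2 and 36.2 RPKM in the 3 P2.5 libraries and between 3.69 and 6.48 in the 4 P10.5 libraries (log2 fold change -2.46, SE 0.15, adjusted p = 3.98e-08). *Lhx1* lay between 27.0 and 36.7 at P2.5 and between 4.67 and 6.51 at P10.5 (log2 fold change -2.32, SE 0.14, adjusted p = 3.12e-08). *Gfra1* (-1.33 ± 0.10, SE), *Sall4* (-1.18 ± 0.11), *Etv5* (-1.10 ± 0.09), *Ret* (-1.08 ± 0.10), *Id4* (-0.76 ± 0.17) and *Foxo1* (-0.48 ± 0.08) fell by less, with adjusted p-values from 2.36e-07 (*Gfra1*) to 0.00252 (*Id4*). *Zbtb16* had a log2 fold change of -0.06 (95% interval -0.30 to 0.17), although on the RPKM scale its P10.5 libraries lay below those of P2.5. At P10.5, at 35.8 ± 1.38 RPKM (SD, n = 4), it stood second to *Sall4* at 39.6 ± 4.02. *Taf4b* had a log2 fold change of -0.04 (-0.31 to 0.22), and its P2.5 and P10.5 libraries overlapped.

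The order of the control means at P10.5 was *Sall4*, *Zbtb16*, *Foxo1* (27.0 ± 1.14 RPKM), *Etv5* (26.2 ± 1.60), *Ret* (24.0 ± 1.40), *Taf4b* (18.7 ± 1.76), *Gfra1* (18.4 ± 1.96), *Id4* (13.2 ± 0.537), *Lhx1* (5.43 ± 0.811) and *Bcl6b* (5.24 ± 1.16). The neighbours *Sall4* and *Zbtb16*, *Foxo1* and *Etv5*, *Taf4b* and *Gfra1*, and *Lhx1* and *Bcl6b* differed by less than the larger SD of the pair. The gate, the strain background and the age all change between P2.5 and P10.5 and cannot be told apart. Sertoli markers moved with this step as well, with 7 of 11 called higher and a summed level of 34.0 to 36.8 RPKM at P2.5 and 94.6 to 157 at P10.5, against 4397 to 4589 in the testis, and their part in the falls was not tested. E18.5 and P2.5 libraries each enter 2 of these steps.

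The genes of the same pathways were followed by lists chosen, like the 10 genes, with earlier results of these data known. Of 28 GDNF and FGF signalling genes, 7 of 25 tested rose and 3 fell from E18.5 to P2.5, beside 24.5% of all genes called. The rises included the ETS factor gene *Etv4* (log2 fold change 3.65 ± 0.52, SE), the feedback inhibitor gene *Spry4* (2.83 ± 0.34) and the receptor gene *Fgfr2* (2.71 ± 0.88), and the falls *Spry2* (-2.12 ± 0.56), *Ncam1* (-2.11 ± 0.25) and the adaptor gene *Frs2* (-1.18 ± 0.19). The list's median was -0.23. From P2.5 to P10.5, where 39.3% of all genes were called, 11 of 23 fell, led by *Etv4* (-2.62 ± 0.13), *Fgfr2* (-1.85 ± 0.34) and *Spry4* (-1.50 ± 0.18), and *Fgfr3* alone rose (0.94 ± 0.27). Other genes of undifferentiated spermatogonia rose in 9 and fell in 4 of 21 cases from E18.5 to P2.5, with *Sohlh2*, which encodes a factor of spermatogonial differentiation, highest among the rises (3.94 ± 0.75). They fell in 16 of 22 from P2.5 to P10.5, led by *Utf1* (-3.10 ± 0.38), *Pax7* (-2.30 ± 0.30) and *Thy1* (-2.05 ± 0.29). In the list named for differentiating spermatogonia, 4 of 7 genes rose over that last step, among them *Dmrtb1* (3.65 ± 0.16), *Prdm9* (2.95 ± 0.26) and the retinoic acid target *Stra8* (1.42 ± 0.13). Genes of entry into meiosis were not kept apart from that list. Of 18 FOXO and PI3K signalling genes, 4 rose and 4 fell from E18.5 to P2.5, and 3 rose and 10 fell from P2.5 to P10.5.

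**Figure D2:**
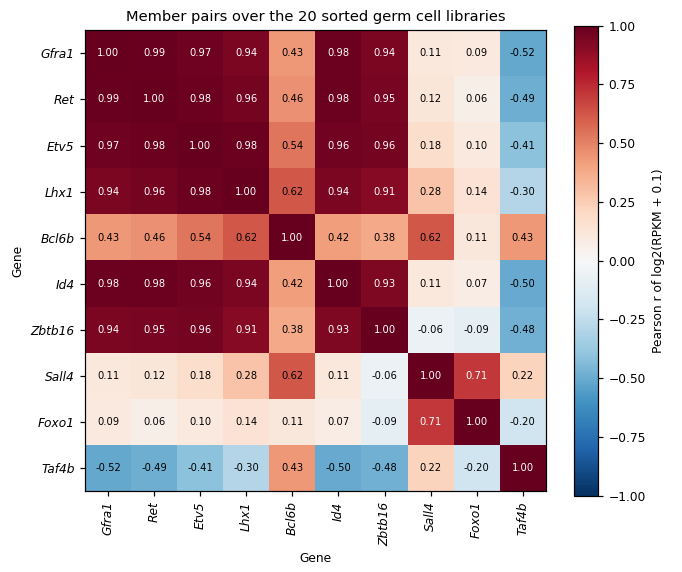
Pearson's r between the log2(RPKM + 0.1) levels of each pair of the 10 genes over the 20 sorted germ cell libraries, shown as colour with the value in each cell. *Gfra1*, *Ret*, *Etv5*, *Lhx1*, *Id4* and *Zbtb16* form a block of high values (0.913 to 0.991), and *Taf4b* has negative values with *Gfra1* (-0.515) and other genes of the block.

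Across the 20 sorted libraries, *Gfra1*, *Ret*, *Etv5*, *Lhx1*, *Id4* and *Zbtb16* shared a pattern, with pairwise r of 0.913 to 0.991 on the log2(RPKM + 0.1) scale. *Bcl6b* and *Lhx1* had an r of 0.620, *Foxo1* and *Sall4* of 0.707, and *Taf4b* and *Gfra1* of -0.515. Among 12870 genes with a mean of at least 1 RPKM, the gene most like *Gfra1* was *Ret* (r = 0.991) and the gene most like *Lhx1* was *Etv5* (0.984), while *Etv5* was most like *Abr* (0.986). *Zbtb16* was most like *Anp32b* (0.987), *Id4* like *Gfra1* (0.983), *Bcl6b* like *Hnrnpf* (0.947), *Foxo1* like *Tiam1* (0.952), *Sall4* like the chemokine receptor gene *Cxcr4* (0.953) and *Taf4b* like *Eif3c* (0.925). These points share stage, gate and library depth, so the values describe a common course over 4 stages and carry no test.

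A second question was where the genes were expressed in the juvenile testis. All 10 genes were called higher in sorted P10.5 *Morc1*tg/+ germ cells (4 libraries) than in whole *Morc1*tg/+ testis (2 libraries), beside 77.7% of 14973 genes called in either direction. The log2 fold changes were 2.58 for *Lhx1* (6.00-fold), 2.55 for *Sall4* (5.87-fold), 1.95 for *Ret*, 1.88 for *Id4*, 1.72 for *Gfra1*, 1.72 for *Zbtb16*, 1.25 for *Etv5*, 1.21 for *Foxo1*, 1.17 for *Taf4b* and 0.95 for *Bcl6b*, with SEs of 0.08 to 0.18 and a largest adjusted p of 0.000152 (*Bcl6b*). The median of the 10 genes was 1.72, beside -0.02 over all genes. On the RPKM scale the median gene was lower in the sorted libraries, by 0.73 in log2, and *Bcl6b*, at 6.48, 5.55, 5.23 and 3.69 RPKM in the sorted and 4.22 and 4.49 in the testis libraries, overlapped on that scale. The sorted libraries of the other 9 genes lay above the testis libraries, for example *Sall4* at 34.5 to 43.0 against 10.8 and 10.9 RPKM. The share of all genes that separated in this way was not counted. Tissue, library kit and RNA selection (depletion of ribosomal RNA in sorted cells) changed together and cannot be told apart.

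From P10.5 to P14.5, as the first germ cells enter meiosis, 5 of the 10 genes fell and 2 rose in *Morc1*tg/+ testis (2 and 3 libraries), beside 51.4% of 15538 genes called. *Lhx1* fell from 1.41 and 1.49 to 0.341, 0.363 and 0.399 RPKM (log2 fold change -1.997, SE 0.17, adjusted p = 3.53e-05). *Bcl6b* fell from 4.22 and 4.49 to 1.80, 2.45 and 1.87 (log2 fold change -1.11, SE 0.15, adjusted p = 0.000309), and *Gfra1* from 8.43 and 9.52 to 5.06, 6.23 and 4.52 (log2 fold change -0.78, SE 0.12, adjusted p = 0.000715). *Etv5* (-0.67 ± 0.07, adjusted p = 8.23e-05) and *Ret* (-0.49 ± 0.14, adjusted p = 0.0148) fell as well, so that both receptor genes and all 3 GDNF-responsive factors went down. *Taf4b* rose from 14.4 and 12.3 to 24.2, 22.2 and 23.7 RPKM (log2 fold change 0.79, SE 0.08, adjusted p = 1.00e-04), and *Id4* from 6.18 and 5.36 to 8.20, 6.89 and 8.95 (log2 fold change 0.45, SE 0.14, adjusted p = 0.0254). The call for *Ret* was lost without P10.5 replicate 2 (adjusted p = 0.0681) or replicate 3 (0.114), and that for *Id4* without P10.5 replicate 3 (0.164) or P14.5 replicate 1 (0.0537) or 3 (0.0681), whereas *Zbtb16* (0.0207) and *Sall4* (0.0269) were called as falling without P14.5 replicate 2. With all libraries *Zbtb16* (-0.26), *Sall4* (-0.15) and *Foxo1* (-0.09, 95% interval -0.29 to 0.11) did not pass. In the same tissue 15 of 26 GDNF and FGF signalling genes fell, including the ligand gene *Gdnf* itself (-1.36 ± 0.10, SE) and the coreceptor gene *Gfra2* (-1.44 ± 0.16). Markers of other cells moved with this step, as 11 of 11 meiosis genes and 11 of 12 germ cell genes rose and 8 of 11 Sertoli genes fell, and their part in the falls was not tested.

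The third question was whether loss of MORC1 changed the genes. By edgeR's test none of the 10 genes was called in germ cells before or just after birth, with 2 or 3 libraries a group. DESeq2 called *Sall4* at E18.5. At P10.5, with 3 and 4 libraries, 7 of 10 were higher by edgeR's test. At E16.5, 0 of 10 passed edgeR's test beside 0.421% of 16630 genes (70 called), and DESeq2 called 0 as well. Only *Etv5* of the 10 genes had an unadjusted p under 0.05, beside 1447 of the 16630. *Etv5* was at 4.03 and 3.97 RPKM in *Morc1*tg/tg and 4.47 and 5.93 in *Morc1*tg/+ cells (log2 fold change -0.45, 95% interval -0.84 to -0.07, unadjusted p = 0.0223, adjusted p = 0.463). *Gfra1* was at 1.28 and 1.22 in the mutants and 1.63 and 1.72 in the controls (-0.51, -1.11 to 0.09, adjusted p = 0.657). In both genes the mutant libraries lay below the controls. *Sall4* lay above them, with 74.1 and 66.4 RPKM against 54.5 and 65.1 (0.15, -0.04 to 0.34, adjusted p = 0.674), and the other 7 genes overlapped. The median log2 fold change of the 10 genes was -0.06, beside -0.01 over all genes.

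At E18.5, 0 of 10 were called beside 0.0416% of 14422 genes. Of the 10 genes *Sall4* alone had an unadjusted p under 0.05, beside 895 of the 14422. It stood at 86.7 and 47.7 RPKM in the mutants against 126 and 89.3 in the controls (log2 fold change -0.58, SE 0.19, adjusted p = 0.676). *Sall4* was called by DESeq2 (adjusted p = 0.0423) and by edgeR without *Morc1*tg/+ replicate 2 (0.00467), a fit with 1 control library whose spread comes from the 2 mutants alone. The 2 mutant libraries of this stage stood far apart: replicate 2 was below replicate 1 in *Etv5* (10.51 and 3.64 RPKM for replicates 1 and 2), *Bcl6b* (6.00 and 1.46), *Zbtb16* (6.75 and 2.35) and *Lhx1* (1.95 and 0.162, or 36 and 4 reads), but not in *Gfra1* (2.89 and 4.07) or *Ret* (4.07 and 4.79). The intervals were wide, such as -1.96 to 0.68 in log2 for *Bcl6b*. At P2.5, 0 of 10 were called beside 0.0486% of 14413 genes, with 0 called by DESeq2 too. An unadjusted p under 0.05 was found for *Bcl6b* only of the 10 genes, beside 698 of the 14413. It stood at 25.9 and 24.1 RPKM in the mutants and 31.2, 35.5 and 36.2 in the controls (log2 fold change -0.48, SE 0.19, adjusted p = 0.968). The mutant libraries of *Bcl6b*, *Etv5* and *Foxo1* lay below all controls at P2.5, and those of the other 7 genes overlapped them. How often libraries separate in this way over all genes, here and at E16.5, was not counted. Of the GDNF and FGF, other undifferentiated spermatogonia, FOXO and PI3K, and ID and E protein lists, 0 genes were called at any of these 3 stages.

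In P10.5 germ cells 7 of the 10 genes were higher in *Morc1*tg/tg (3 libraries) than in *Morc1*tg/+ (4 libraries) and none was lower, beside 12.2% of 14019 genes called in either direction. The median log2 fold change was 0.38 for the 10 genes and 0.00 over all. In the 7 called genes, which were picked by the test on these same libraries, each mutant library was above every control library. The share of all genes that separate in this way was not counted. *Bcl6b* stood at 8.45, 11.4 and 11.3 RPKM in the mutants and 6.48, 5.55, 5.23 and 3.69 in the controls, a 1.88-fold rise (log2 fold change 0.91, SE 0.14, adjusted p = 8.99e-05). The GDNF coreceptor gene *Gfra1* was at 25.3, 28.9 and 26.9 against 19.2, 19.8, 19.2 and 15.5 (log2 fold change 0.47, SE 0.08, adjusted p = 0.000387). *Ret* was at 29.3, 35.0 and 32.8 against 24.9, 25.5, 23.0 and 22.7 (log2 fold change 0.35, SE 0.07, adjusted p = 0.00231). Receptor and coreceptor genes were both higher. *Etv5* was at 34.3, 45.2 and 35.1 against 28.3, 24.4, 26.2 and 26.0 (log2 fold change 0.46, SE 0.08, adjusted p = 0.000389). *Zbtb16* was at 47.3, 53.2 and 50.2 against 37.6, 34.3, 35.7 and 35.4 (log2 fold change 0.41, SE 0.07, adjusted p = 0.000196). *Lhx1* (0.42 ± 0.13, adjusted p = 0.0266) and *Foxo1* (0.23 ± 0.07, adjusted p = 0.0368) passed more narrowly. *Id4*, at 14.2, 18.1 and 11.2 against 12.6, 13.5, 12.98 and 13.8 RPKM, overlapped and had a log2 fold change of 0.05 (95% interval -0.23 to 0.32), and *Sall4* (0.16, -0.02 to 0.35) and *Taf4b* (-0.06, -0.23 to 0.12) overlapped too.

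The P10.5 call for *Lhx1* was lost without *Morc1*tg/+ replicate 3 (adjusted p = 0.103), *Morc1*tg/+ replicate 4 (0.0760) or *Morc1*tg/tg replicate 2 (0.200), and that for *Foxo1* without *Morc1*tg/+ replicates 1 (0.0986), 3 (0.0950) or 4 (0.100) or *Morc1*tg/tg replicates 2 (0.219) or 3 (0.0546). In a fit that shared 1 estimate of spread among all 20 sorted libraries only *Bcl6b* was still called of these 7, with 125 genes called in all. The log2 fold changes of the other 6 lay between 0.22 and 0.46 with adjusted p-values of 0.0912 (*Gfra1*) to 0.886 (*Lhx1*). Over the 12 alternatives by edgeR or DESeq2, the largest adjusted p of *Bcl6b* was 0.0464, close to the threshold. The effect differed between P10.5 and E16.5 for 3 of 10 genes, beside 1.71% of 16917 genes called by the interaction test. Gate, strain background and age all differ between these stages and cannot be told apart in this difference. The log2 effect at P10.5 minus that at E16.5 was 0.98 (SE 0.19, adjusted p = 0.00401) for *Gfra1*, 0.92 (SE 0.16, adjusted p = 0.00161) for *Etv5* and 0.91 (SE 0.23, adjusted p = 0.0336) for *Bcl6b*. For *Gfra1* (-0.51 at E16.5, 0.47 at P10.5) and *Etv5* (-0.45, then 0.46) the 2 effects were of about equal size and opposite sign, with that at E16.5 not called, and *Bcl6b* went from 0.00 to 0.91. The other 7 differences lay between -0.02 (*Taf4b*) and 1.18 (*Lhx1*, adjusted p = 0.174). The *Bcl6b* difference was lost without any of 7 of the 11 libraries, namely E16.5 *Morc1*tg/+ replicate 2 (adjusted p = 0.140), E16.5 *Morc1*tg/tg replicates 1 (0.144) and 2 (0.153), P10.5 *Morc1*tg/+ replicates 3 (0.0508) and 4 (0.0502) and P10.5 *Morc1*tg/tg replicates 2 (0.0668) and 3 (0.0799), and *Lhx1* was called without E16.5 *Morc1*tg/+ replicate 1 (0.00741).

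Related genes were compared in the same P10.5 germ cells, where 12.2% of all genes were called. Of the GDNF and FGF signalling genes 4 of 23 rose, including *Etv4* (log2 fold change 0.48 ± 0.13, SE), the phosphatase gene *Dusp6* (0.40 ± 0.11) and *Egr1* (0.32 ± 0.10), and *Fgfr3* fell (-0.53 ± 0.14). Of other undifferentiated spermatogonia genes 6 of 22 rose, including *Pou5f1* (0.71 ± 0.20), *Epha2* (0.67 ± 0.16) and the E-cadherin gene *Cdh1* (0.58 ± 0.10), and the retinoic acid receptor gene *Rarg* fell (-0.42 ± 0.14). The medians of these 2 lists were 0.22 and 0.40. Of the FOXO and PI3K genes 4 of 18 rose, with *Sgk1* foremost (0.79 ± 0.18), and *Id3* was the 1 gene called of 6 ID and E protein genes (1.10 ± 0.33). In the list named for differentiating spermatogonia, not kept apart from genes of entry into meiosis, 4 of 7 were lower (*Prdm9* -1.39 ± 0.13, *Stra8* -1.08 ± 0.10 and *Dmrtb1* -0.81 ± 0.11) and 1 was higher. Of meiosis genes 7 of 11 were lower, and of pachytene and later genes 1 of 7. Germ cell markers summed to 648 to 725 RPKM in the mutants and 540.1 to 637 in the controls, and Sertoli markers, of which 5 of 11 were called lower, to 60.3 to 121 and 94.6 to 157. The median log2 ratio of RPKM over all genes was 0.09 here, and the sums were not adjusted for it. The part of these marker changes in the rise of the 7 genes was not tested.

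In whole testis at P10.5 the only one of the 10 genes called on loss of MORC1 was *Taf4b*, beside 15.3% of 15165 genes, and the median of the 10 genes was 0.03 (all genes 0.01). *Taf4b* fell from 13.4, 14.4 and 12.3 RPKM in the 3 controls to 10.1, 10.3 and 9.08 in the 3 mutants (log2 fold change -0.43, SE 0.07, adjusted p = 0.00286). *Gfra1*, at 9.45, 10.2 and 8.59 against 9.00, 8.43 and 9.52 RPKM, overlapped, and its log2 fold change of 0.08 had a 95% interval of -0.07 to 0.24. *Ret* (0.05, -0.09 to 0.20), *Zbtb16* (0.09, -0.11 to 0.30) and *Lhx1* (-0.06, -0.32 to 0.21) overlapped likewise. *Etv5* (3 mutants above the controls, 0.17, adjusted p = 0.0657) and *Sall4* (3 mutants below, -0.22, adjusted p = 0.0555) were near the threshold. *Bcl6b* (0.23, 0.01 to 0.45), *Id4* (-0.18, -0.43 to 0.06) and *Foxo1* (0.01, -0.14 to 0.17) did not pass. Without *Morc1*tg/tg replicate 1 the calls numbered 3, as *Bcl6b* (0.0309) and *Sall4* (0.0133) joined, and without *Morc1*tg/tg replicate 2 they numbered 2, with *Etv5* (0.0454). Germ cell markers were lower at this age, with 8 of 12 called and a summed level of 267 to 304 RPKM against 379.5 to 394, all 11 meiosis genes were lower, and 5 of 11 Sertoli, 3 of 8 Leydig and 4 of 8 macrophage genes were higher. Their part in the levels of the 10 genes was not tested.

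**Figure D3:**
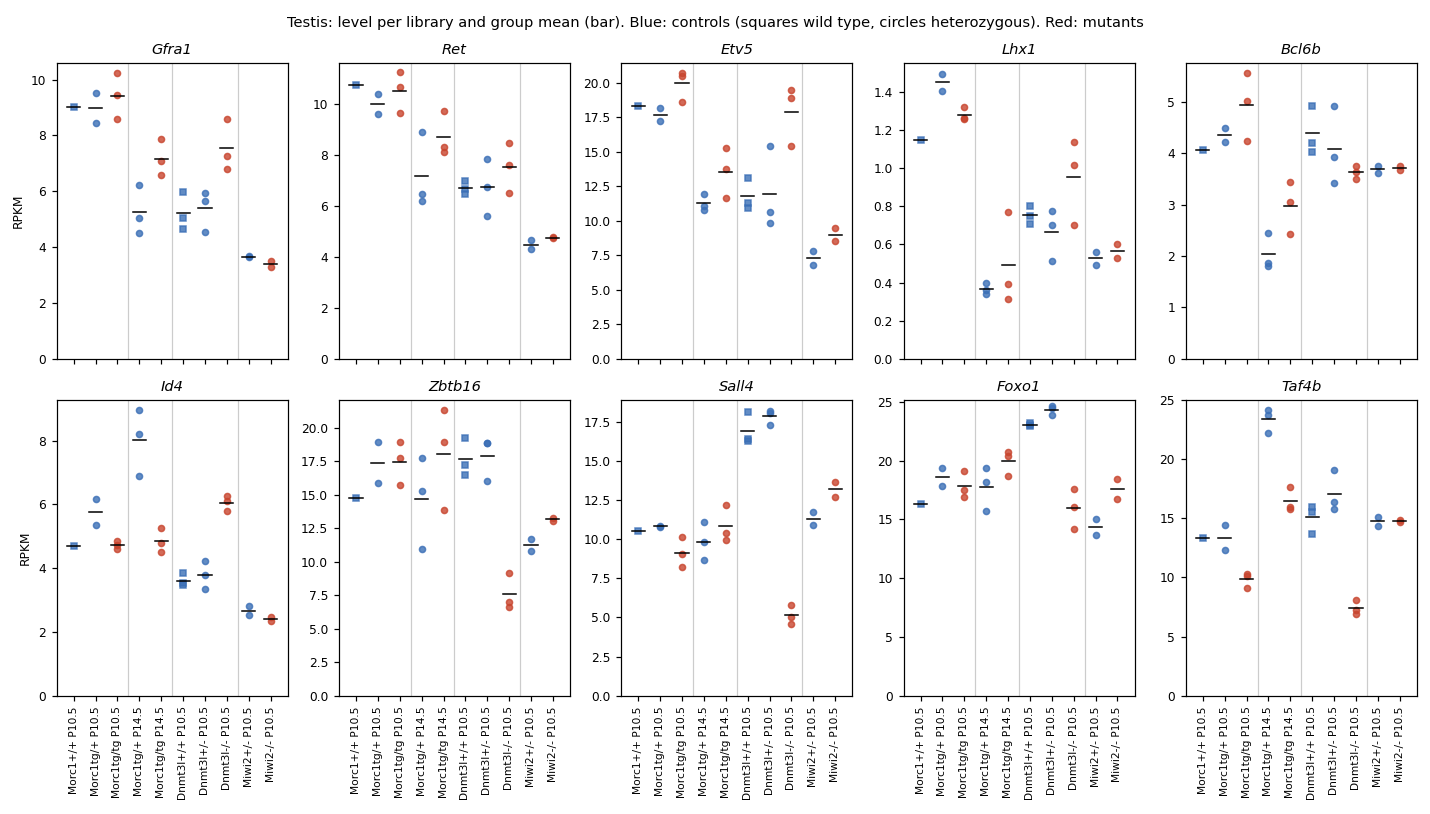
RPKM (linear axes from 0) of the 10 genes in testis libraries by mutant line and age, with control libraries in blue (squares wild type, circles heterozygous) and mutant libraries in red, and bars at the group means. *Sall4* sits at 4.59 to 5.79 in *Dnmt3l*-/- testis, below all its controls (16.3 to 18.2), and *Id4* sits at 4.51 to 5.25 in P14.5 *Morc1*tg/tg testis, below its controls (6.89 to 8.95).

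At P14.5 *Gfra1* and *Bcl6b* were higher and *Id4* and *Taf4b* lower in *Morc1*tg/tg testis, 4 of 10 beside 34.8% of 15283 genes called, with a median of 0.28 (all genes 0.01). The share of the 10 genes called was near that over all genes, of which 2257 were called higher and 3066 lower. *Id4* fell from 8.20, 6.89 and 8.95 RPKM to 4.79, 5.25 and 4.51 (log2 fold change -0.71, SE 0.13, adjusted p = 0.00377). *Taf4b* fell from 24.2, 22.2 and 23.7 to 17.7, 15.8 and 15.9 (log2 fold change -0.50, SE 0.06, adjusted p = 0.000549). Their log2 fold changes between P10.5 and P14.5 in control testis, a comparison that shares the P14.5 *Morc1*tg/+ libraries, were 0.45 and 0.79. *Gfra1* rose from 5.06, 6.23 and 4.52 to 7.07, 6.57 and 7.87 (log2 fold change 0.45, SE 0.11, adjusted p = 0.0155). *Bcl6b* rose from 1.80, 2.45 and 1.87 to 3.06, 2.42 and 3.44 (log2 fold change 0.55, SE 0.16, adjusted p = 0.0304), with 1 mutant library of *Bcl6b* below the highest control. *Etv5* (0.27, adjusted p = 0.0552), *Ret* (0.29, 0.122), *Zbtb16* (0.31, 0.214), *Foxo1* (0.18, 0.0958), *Sall4* (0.15, 0.250) and *Lhx1* (0.42, 0.352) did not pass. *Etv5* did pass by DESeq2 (0.0233), with RLE normalization (0.0414) and with no filter on low counts (0.0480).

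The P14.5 call for *Gfra1* was lost without *Morc1*tg/+ replicate 1 (adjusted p = 0.0556) or 3 (0.0539) or *Morc1*tg/tg replicate 3 (0.0645), and that for *Bcl6b* without the same libraries (0.103, 0.0960 and 0.110) or *Morc1*tg/tg replicate 1 (0.0580), which brings the calls from 4 to 2 for the first 3. *Ret* was called without *Morc1*tg/+ replicate 2 (0.00750) and *Etv5* without *Morc1*tg/tg replicate 2 (0.0135). By the interaction test in edgeR, 0 of 10 genes had an effect that differed between P14.5 and P10.5, beside 8.22% of 15657 genes. Of the 10 genes 3 had an unadjusted p under 0.05, beside 3642 of the 15657: *Id4* (-0.54, adjusted p = 0.0785), *Sall4* (0.36, 0.0950) and *Gfra1* (0.36, 0.146). DESeq2 called 0 as well, and without P14.5 *Morc1*tg/+ replicate 2 the number was 4 (*Gfra1*, *Ret*, *Id4* and *Sall4*), while it was 1 without P10.5 *Morc1*tg/+ replicate 2 (*Id4*) or without P10.5 *Morc1*tg/tg replicate 1 (*Sall4*).

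At P14.5, where 34.8% of all genes were called, other genes of undifferentiated spermatogonia rose in 8 of 22 cases, including *Shisa6* (1.54 ± 0.23), *Epha2* (0.71 ± 0.21) and the integrin gene *Itga6* (0.51 ± 0.08), and *Sohlh2* fell (-0.74 ± 0.07). Of GDNF and FGF signalling genes 4 of 26 rose, including *Gdnf* (0.77 ± 0.16) and *Spry2* (0.41 ± 0.12), and *Fgfr3* fell (-0.67 ± 0.11), a smaller share called than over all genes. At P10.5, where 15.3% of all genes were called, the same 2 lists had 2 rises and 5 falls of 22, and 3 rises and 1 fall of 25. *Gdnf* was at 0.34 ± 0.09. Cell markers shifted at P14.5 as well. Germ cell markers summed to 375 to 429 RPKM in the mutants and 667 to 799.9 in the controls (11 of 12 called lower), all 11 meiosis genes were lower, and Sertoli markers summed to 4795 to 6063 and 3684 to 4194 (10 of 11 called higher). How far these shifts carried the 4 genes was not tested.

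Loss of DNMT3L, the cofactor of *de novo* DNA methylation, split the genes. In P10.5 *Dnmt3l*-/- testis *Id4*, *Etv5*, *Gfra1* and *Lhx1* were higher and *Sall4*, *Zbtb16*, *Taf4b* and *Foxo1* lower, 8 of 10 beside 53.9% of 15665 genes called, with a median of 0.01 for the 10 genes and 0.00 over all. *Sall4* had the largest change, from 16.3, 16.4 and 18.1 RPKM in *Dnmt3l*+/+ and 18.1, 17.3 and 18.2 in *Dnmt3l*+/- testis to 4.59, 5.03 and 5.79 in *Dnmt3l*-/- testis, 3.28-fold lower (log2 fold change -1.71, SE 0.08, adjusted p = 6.41e-08). *Zbtb16* was at 16.0 to 19.2 RPKM in the 6 controls and fell to 7.01, 6.64 and 9.18 (log2 fold change -1.18, SE 0.10, adjusted p = 3.06e-06). *Taf4b* was at 13.7 to 19.0 and fell to 6.95, 7.27 and 8.12 (log2 fold change -1.06, SE 0.09, adjusted p = 2.67e-06). *Foxo1* was at 22.9 to 24.6 and fell to 16.1, 14.2 and 17.6 (log2 fold change -0.52, SE 0.07, adjusted p = 5.67e-05). None of these 4 overlapped between mutants and controls, and the share of all genes without overlap was not counted. *Id4* rose from 3.46, 3.52 and 3.85 in *Dnmt3l*+/+ and 3.35, 4.23 and 3.78 in *Dnmt3l*+/- to 5.79, 6.25 and 6.10 RPKM (log2 fold change 0.75, SE 0.09, adjusted p = 4.09e-05). *Gfra1* was at 4.55 to 5.97 in the controls and rose to 6.78, 8.59 and 7.26 (log2 fold change 0.55, SE 0.11, adjusted p = 0.000945), again with no overlap. *Etv5* was at 9.82 to 15.4 and rose to 19.5, 18.9 and 15.4 (log2 fold change 0.64, SE 0.13, adjusted p = 0.00154), its highest control level with the lowest mutant. *Lhx1* was at 0.514 to 0.801 and rose to 0.702, 1.02 and 1.14 (log2 fold change 0.47, SE 0.17, adjusted p = 0.0327). *Ret* (0.21, 95% interval -0.01 to 0.43) and *Bcl6b* (-0.18, -0.44 to 0.07) did not pass.

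The call for *Lhx1* in *Dnmt3l*-/- testis was lost without *Dnmt3l*+/+ replicate 2 (adjusted p = 0.0558), *Dnmt3l*+/- replicate 2 (0.0515) or *Dnmt3l*-/- replicates 2 (0.106) or 3 (0.154), and also with the heterozygous (0.0693) or the wild-type controls alone (0.101), and *Ret* was called without *Dnmt3l*+/- replicate 3 (0.0138) or *Dnmt3l*-/- replicate 1 (0.0495). Germ cell markers were lower in *Dnmt3l*-/- testis in all 12 cases, with summed levels of 198 to 237 RPKM against 495 to 629, as were all 11 meiosis genes, and 8 of 11 Sertoli markers were higher, with sums of 4961 to 5472 against 3346 to 4371. Epididymal markers summed to 3.13 to 3.65 RPKM in the mutants and 2.16 to 52.3 in the controls, with 4 of 7 called lower. *Morc1* was lower too (log2 fold change -0.89, adjusted p = 3.21e-05). The part of these shifts in the levels of the 10 genes was not tested.

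**Figure D4:**
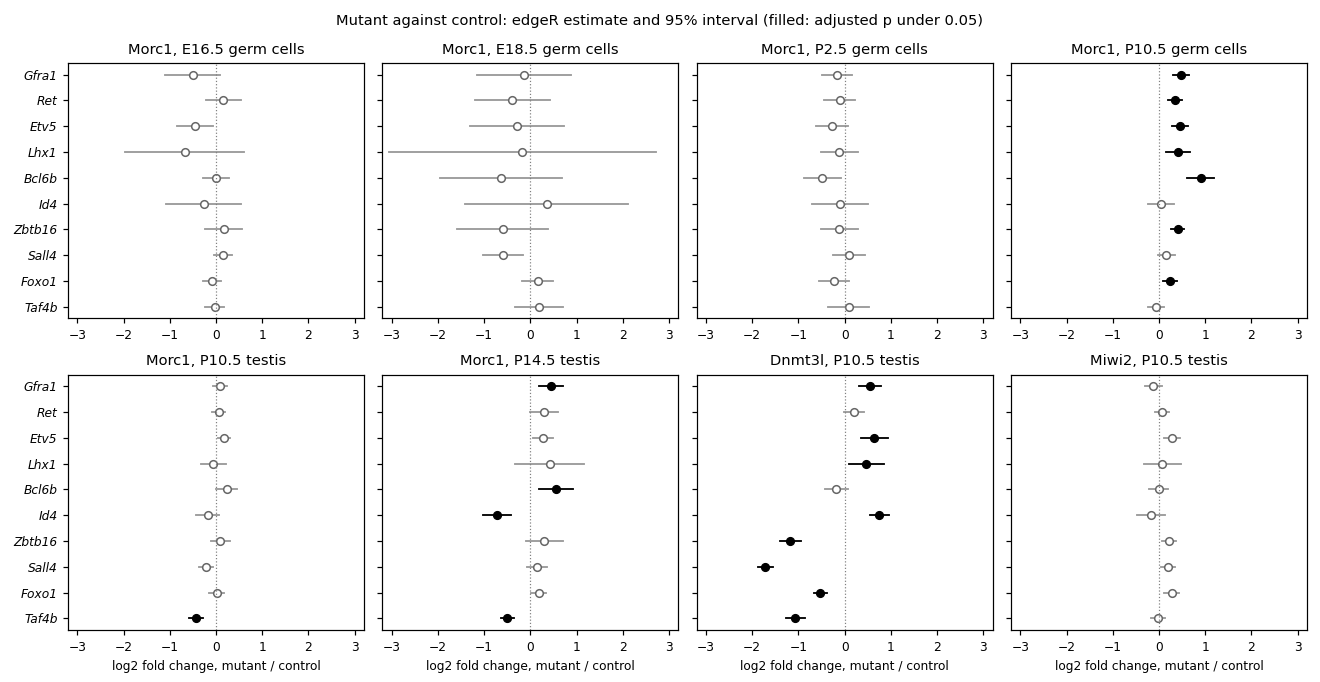
Log2 fold change (mutant over control) of the 10 genes in 8 mutant comparisons, with 95% intervals, filled where the adjusted p is under 0.05. *Sall4* at -1.71 and *Id4* at 0.75 mark the ends of the *Dnmt3l*-/- column, and in P10.5 *Morc1*tg/tg germ cells the 7 filled points lie between 0.23 and 0.91.

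The *Dnmt3l* effect differed from the *Morc1* effect in P10.5 testis for 6 of 10 genes, beside 17.6% of 15902 genes called by the interaction test. It was more negative for *Sall4* (by -1.45 ± 0.11 in log2, adjusted p = 1.14e-06), *Zbtb16* (-1.23 ± 0.15, adjusted p = 6.89e-05), *Taf4b* (-0.58 ± 0.13, adjusted p = 0.00587) and *Foxo1* (-0.49 ± 0.10, adjusted p = 0.00428), and more positive for *Id4* (0.99 ± 0.14, adjusted p = 0.000243) and *Gfra1* (0.52 ± 0.15, adjusted p = 0.0237). The *Gfra1* difference was lost without *Morc1*+/+ replicate 1 (adjusted p = 0.0534), *Morc1*tg/+ replicate 3 (0.0616), *Morc1*tg/tg replicates 1 (0.0583) or 3 (0.0665) or *Dnmt3l*-/- replicate 2 (0.0850), while *Etv5* was called by DESeq2 (0.0495) and without *Dnmt3l*+/- replicate 3 (0.00495) or *Dnmt3l*-/- replicate 3 (0.0177), and *Lhx1* without *Dnmt3l*-/- replicate 1 (0.0408). The 2 lines have no shared libraries, and line and mutation cannot be told apart in this difference.

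In *Dnmt3l*-/- testis 53.9% of all genes were called, and the shares called of the GDNF and FGF and of the other undifferentiated spermatogonia genes were below or near that. Of the first list 8 of 27 genes rose and 4 fell, with *Gdnf* (1.02 ± 0.09, SE), *Gfra2* (0.69 ± 0.14) and *Spry2* (0.68 ± 0.12) highest and *Gfra3* (-1.95 ± 0.17), *Fgf8* (-1.57 ± 0.29) and *Fgfr3* (-1.32 ± 0.11) lowest. Of other undifferentiated spermatogonia genes 3 of 22 rose and 10 fell, with *Neurog3* (-3.17 ± 0.28), *Sox3* (-2.40 ± 0.13) and *Utf1* (-2.21 ± 0.23) lowest and *Epha2* (0.91 ± 0.15) and *Shisa6* (0.67 ± 0.11) highest. Of the ID and E protein genes *Id3* (1.04 ± 0.14), *Id1* (0.78 ± 0.12) and *Id2* (0.67 ± 0.13) all rose, and the E protein gene *Tcf3* fell (-0.20 ± 0.07). The FOXO and PI3K list had 4 rises and 8 falls of 18, among them *Foxo6* (0.76 ± 0.09) and *Mtor* (-0.73 ± 0.09). In the list named for differentiating spermatogonia 6 of 7 genes fell, including the receptor gene *Kit* (-1.85 ± 0.17), *Stra8* (-2.49 ± 0.19) and *Dmrtb1* (-2.86 ± 0.19).

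The testis libraries labelled *Miwi2*-/- had a *Piwil4* level above that of their controls, which may not check the label. In them 0 of 10 genes passed edgeR's test beside 1.23% of 15997 genes. Of the 10 genes 4 had an unadjusted p under 0.05, beside 3229 of the 15997. *Foxo1* was at 18.48 and 16.7 RPKM against 15.1 and 13.6 (log2 fold change 0.28, SE 0.08, adjusted p = 0.0926). *Etv5* was at 9.47 and 8.55 against 7.78 and 6.83 (log2 fold change 0.28, SE 0.08, adjusted p = 0.103). *Zbtb16* was at 13.3 and 13.05 against 10.8 and 11.7 (log2 fold change 0.21, SE 0.07, adjusted p = 0.123), and *Sall4* at 13.7 and 12.7 against 11.7 and 10.9 (log2 fold change 0.21, SE 0.07, adjusted p = 0.137). The libraries labelled *Miwi2*-/- were above the others in all 4 and in *Ret*, and below them in *Gfra1* and *Id4*. How often libraries separate in this way over all genes was not counted. DESeq2 called *Foxo1* (adjusted p = 0.0493). Without *Miwi2*+/- replicate 1, *Foxo1* (0.0337) and *Etv5* (0.0152) were called, without *Miwi2*+/- replicate 2 *Zbtb16* (0.0448), and without *Miwi2*-/- replicate 2 *Etv5* (0.0444), each with 1 library in a group and the spread of the other group alone. *Gfra1*, at 3.50 and 3.30 against 3.64 and 3.67 RPKM, had a log2 fold change of -0.12 (95% interval -0.31 to 0.06), and *Taf4b* one of -0.02 (-0.16 to 0.13). *Id4* (-0.17, -0.47 to 0.13), *Bcl6b* (-0.01, -0.21 to 0.19), *Ret* (0.07, -0.08 to 0.22) and *Lhx1* (0.08, -0.31 to 0.47) did not pass. The median of the 10 genes was 0.07 (all genes 0.01), and of the related lists the transcription factor genes *Egr1* (1.31 ± 0.06, SE) and *Sox3* (0.48 ± 0.07) and the ID gene *Id1* (0.53 ± 0.08) rose and *Pou5f1* fell (-0.59 ± 0.11). Epididymal markers, of which 2 of 7 were called higher, summed to 12.7 to 13.02 RPKM in the libraries labelled *Miwi2*-/- and 4.54 to 4.75 in the others, and their part in the levels of the 10 genes was not tested.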

How the data were processed

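RNA-Seq libraries of sorted germ cells (NuGEN Ovation FFPE kit with depletion of ribosomal RNA, from 10 ng of total RNA) and of whole testis (TruSeq v2) were sequenced by the authors, who trimmed reads to 50 bp, mapped them with Bowtie to mm9 genes and kept uniquely mapping reads. The deposited counts are HTSeq read counts per gene, and the deposited RPKM values are those counts scaled to exon length and to the number of mapped reads. Tool versions are not given in the sources used here. Antisense or overlapping genes could not be told apart where counting ignored strand. Reads that near-identical copies share were not kept, since only uniquely mapping reads were.

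Counts were fitted with edgeR 4.0.16 in R 4.3.3 (TMM, filterByExpr, quasi-likelihood test, Benjamini-Hochberg adjustment over all genes tested), each comparison on its own libraries. DESeq2 1.42.0, RLE normalization, no filter, 1 fit per tissue, a replicate block, other control sets and leaving out each library were alternatives. Where that left 1 library in a group, its spread was taken from the other groups of the fit. The fits were tested on simulated data. Groups came from the labels. Overlap of libraries between groups was not counted over all genes. None of the 38 pairs of libraries within a group agreed within sampling noise, and pairs across groups were not compared. Depth limits the sorted E18.5 and P2.5 libraries most. Each library is a mouse, and p-values measure the spread between mice.

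All 10 genes were tested in every comparison, and one given no value of its own did not pass edgeR's test there. Of each related list the counts and at most 3 called genes each way with the largest change are named, with the targeted genes and the genes with the highest Pearson's r over 20 sorted libraries. The members and lists were chosen with earlier results of these data known. Small RNA, methylation and chromatin data were not used here.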

Additional observations from a re-analysis of the deposited data

Results flagged for a closer look

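The level of *Gfra1* in the 4 P10.5 *Morc1*tg/+ germ cell libraries included a low library, at 15.5 RPKM beside 19.2 to 19.8, with a gap of 0.860 of the group's range. Of 10 genes tested in this way chance would mark about 1 in 20.

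In germ cells the log2 effect of *Morc1* loss at P10.5 minus that at E16.5 was 0.98 for *Gfra1*, 0.92 for *Etv5* and 0.91 for *Bcl6b*, by the interaction test. The effects of *Gfra1* (-0.51 and 0.47) and *Etv5* (-0.45 and 0.46) at E16.5 and P10.5 were of about equal size and opposite sign. Neither E16.5 effect was called, and gate and strain background change with the stage. In P10.5 testis the *Dnmt3l* effect was more positive than the *Morc1* effect by 0.99 for *Id4* and 0.52 for *Gfra1*, and more negative for *Sall4* (-1.45), *Zbtb16* (-1.23), *Taf4b* (-0.58) and *Foxo1* (-0.49). The differences for *Bcl6b* in germ cells and *Gfra1* in testis were lost in some of the fits that left out a library.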

How the results depend on the processing

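No call of the 10 genes changed direction under any alternative run, and over single genes and settings 65 values newly passed the threshold and 53 lost it. Depth and 2 to 4 libraries a group limit the smaller effects. The causes were not tested.

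The number of the 10 genes called moved as follows. On *Morc1* loss it was 0 in E18.5 germ cells, but 1 by DESeq2 and 0 to 1 on leaving out a library. In P10.5 germ cells it was 7, but 1 with all 20 sorted libraries in 1 fit, and 5 to 7 on leaving out a library. In P10.5 testis it was 1, but 2 with no filter or with the preliminary libraries and a batch term, and 1 to 3 on leaving out a library. In P14.5 testis it was 4, but 5 by DESeq2, with RLE normalization, with no filter or with the replicate block, 6 in 1 fit, and 2 to 5 on leaving out a library. In the libraries labelled *Miwi2*-/- it was 0, but 1 by DESeq2 and 4 with the replicate block, and 0 to 2 on leaving out a library. From E16.5 to E18.5 it was 4, but 7 by DESeq2, 8 in 1 fit, 7 with the replicate block, 6 with no filter and 0 to 9 on leaving out a library. From E18.5 to P2.5 it was 7, but 8 by DESeq2 or in 1 fit. For the P14.5 against P10.5 interaction it was 0, but 1 with no filter and 0 to 4 on leaving out a library. *Dnmt3l* loss gave 8, but 9 in 1 fit and 7 with either control genotype alone, the P10.5 against E16.5 interaction 3, but 4 with no filter, and the *Dnmt3l* against *Morc1* interaction 6, but 7 by DESeq2. Ranges on leaving out a library were 7 to 9 for *Dnmt3l* loss (8 with all), 5 to 9 for P10.5 to P14.5 testis (7), 2 to 4 for the P10.5 against E16.5 interaction (3) and 5 to 7 for the *Dnmt3l* against *Morc1* interaction (6).

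Nothing in the labels says that a replicate number marks shared animals or days. Correlations of same-numbered libraries' deviations ran from -0.43 to 0.35, with no comparison of 3 or more pairs above 0.1 in every pair. In the 2 pairs labelled *Miwi2* the value was 0.32, which must be the same for both pairs with 2 libraries a group. The replicate block therefore stands as an alternative. In the libraries labelled *Miwi2* the block called *Foxo1* (adjusted p = 7.99e-08 by edgeR's test), *Etv5* (7.11e-06), *Zbtb16* (0.000120) and *Sall4* (0.000238). With 2 libraries a group, that fit has little left to measure the spread between mice, and it called 4503 of all genes beside 197 without the block. With the block the 10 genes gave 0 calls for *Morc1* loss at E16.5, E18.5 and P2.5, 6 at P10.5, 1 and 5 in P10.5 and P14.5 testis, 8 for *Dnmt3l*, 7 and 8 for the 2 later germ cell steps and 8 for the testis step.

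Counts over all genes moved by more than 1.5 times in these cases. *Morc1* loss at E16.5 called 70 genes, but 180 with no filter, 8 in 1 fit, 174 with the block and 74 to 171 on leaving out a library. At E18.5 it called 6, but 290 by DESeq2, 83 with no filter, 619 in 1 fit, 46 with the block and 0 to 190 on leaving out a library. At P2.5 it called 7, but 21, 27, 79, 30 and 0 to 70 under the same alternatives. In P10.5 germ cells it called 1712, but 125 in 1 fit. In P10.5 testis it called 2326, but 1342 in 1 fit, 1200 with the block and 922 to 2352 on leaving out a library, and in P14.5 testis 5323, but 3517 to 5001. The *Miwi2* libraries gave 197, but 391 by DESeq2, 87 in 1 fit, 4503 with the block and 340 to 952 on leaving out a library. E16.5 to E18.5 gave 1220, but 2350 by DESeq2, 3062 in 1 fit, 2011 with the block and 255 to 9106 on leaving out a library, and E18.5 to P2.5 gave 3557, but 6522 in 1 fit, 2343 with the block and 1915 to 3989. The interactions gave 290 (437 by DESeq2, 507 with no filter, 130 to 312 on leaving out a library), 1287 (772 to 1746) and 2797 (1753 to 4021).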
